A study of Mus musculus with 12 samples.

Results

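The Kruppel-like factors (KLF) described here are 7 transcription factor genes, Klf2, Klf3, Klf4, Klf6, Klf7, Klf10 and Klf13. They were picked by symbol out of 31053 genes listed in the feature tables, with earlier results of these data known. These members are therefore not an independent choice of genes, and the counts of members called below are a description. They were measured by droplet single-cell RNA sequencing (10X Genomics 3′ version 2) in live CD45+ CD11b+ myeloid cells sorted from whole brains of 12 male C57BL/6J mice at postnatal day 90, with 1 animal per library and 3 animals in each of 4 preparations. Brains were either homogenized mechanically in a cold Dounce (DNC) or digested with enzymes at warm temperature (ENZ), and each was done without inhibitors (NONE) or with a cocktail of the transcription blockers actinomycin D and triptolide and the translation blocker anisomycin (INHIB). The preparations are named DNC-NONE (replicates 1 to 3), DNC-INHIB (replicates 4 to 6), ENZ-NONE (replicates 4 to 6) and ENZ-INHIB (replicates 1 to 3). The labels give no difference of strain, sex or age between the groups. The comparison of these preparations asks how far the isolation itself changes the transcripts found in microglia, the resident macrophages of the brain.

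KLF proteins bind GC-rich and CACCC-type DNA through zinc fingers at their C-terminal end, while their N-terminal parts recruit either activating or repressing partners. In myeloid cells Klf2 is known as a brake on inflammatory activation, Klf4 as a factor of monocyte differentiation and macrophage polarization, and Klf6 as a coactivator of inflammatory genes in macrophages. Several members, among them Klf2, Klf4, Klf6 and Klf10, are also known as early-response genes, whose short-lived transcripts rise soon after a cell is stimulated. Fos, used below to split the cells, is the classic immediate-early gene and encodes a subunit of the AP-1 transcription factor.

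The 12 libraries held 28426 barcodes, of which 18825 were kept as cells (at least 500 genes and 1000 unique molecular identifiers, UMIs, and at most 10% mitochondrial UMIs). Kept libraries held 853 to 2185 cells and 1059783 to 3233159 UMIs, with medians of 1153 to 1572 UMIs per cell, and 236 barcode sequences among the kept cells occurred in more than 1 library. The label as microglia held, since P2ry12, Tmem119 and Cx3cr1 were found at medians of 7649, 3953 and 2368 CPM (UMIs of the gene scaled to a library total of 1000000 UMIs) and 18326 cells fell into microglia-like clusters. Markers of other cells that carry KLF transcripts were also summed. The 7 monocyte markers, all detected, summed to 154 to 276 CPM in DNC-NONE, 39.5 to 101 in DNC-INHIB, 49.1 to 181 in ENZ-NONE and 28.1 to 117 in ENZ-INHIB. The 6 endothelial markers, of which Ly6c1 was at 0, summed to at most 35.9 CPM in any library. The 6 neutrophil markers, all detected, reached 3933 CPM in DNC-NONE, 376 in DNC-INHIB, 10.99 in ENZ-NONE and 509.6 in ENZ-INHIB. The part of these cells in differences between whole libraries was not tested, beyond the values in microglia-like cells given below. Among the ENZ-NONE libraries, replicate 6 stood apart with 38.6% of its microglia-like cells Fos-positive, against 12.1% in replicate 4 and 14.1% in replicate 5. It was also the only ENZ-NONE library of batch 2, so the library and the batch cannot be told apart. Among the Dounce libraries, DNC-NONE replicate 1 stood apart with 2.66% Fos-positive cells, against 0% to 0.221% in the other 8 libraries prepared in the cold or with inhibitors. Fewer cells of a type and less RNA per cell cannot be told apart in sums over a library, and intervals and floors given below cover counting error only.

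For the members that passed a test in at least 1 comparison, the promoter stretch from 250 to 31 bases before the RefSeq transcript start is shown (GRCm38.p6, gene strand, 5′ to 3′), so that the members called between preparations (Klf2, Klf6) or between Fos classes (Klf2, Klf6, Klf4) can be read beside the motifs of their proximal promoters. Capitals mark the motifs that were found among those searched on both strands, which were the cAMP response element TGACGTCA, the AP-1 site TGACTCA, the GC box GGGCGG, the CACCC box CACCC, the TATA box TATAAA, the E-box CACGTG, the CArG box and the MEF2 site.
Klf2, chr8:72318812-72319031, plus strand: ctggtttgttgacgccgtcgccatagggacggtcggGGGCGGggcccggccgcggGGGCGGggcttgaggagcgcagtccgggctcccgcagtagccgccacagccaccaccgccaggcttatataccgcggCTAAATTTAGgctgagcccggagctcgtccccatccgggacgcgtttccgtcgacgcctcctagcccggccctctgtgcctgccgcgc
Klf6, chr13:5861239-5861458, plus strand: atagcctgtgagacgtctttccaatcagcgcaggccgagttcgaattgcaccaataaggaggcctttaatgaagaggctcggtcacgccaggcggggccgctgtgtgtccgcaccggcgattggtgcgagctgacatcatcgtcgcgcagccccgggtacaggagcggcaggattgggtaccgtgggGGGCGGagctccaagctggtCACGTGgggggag
Klf4, chr4:55532506-55532725, minus strand: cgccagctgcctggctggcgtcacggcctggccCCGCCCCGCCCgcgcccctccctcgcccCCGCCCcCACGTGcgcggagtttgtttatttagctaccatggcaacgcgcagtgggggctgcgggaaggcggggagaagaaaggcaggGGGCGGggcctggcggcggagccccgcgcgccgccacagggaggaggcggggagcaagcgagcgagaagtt

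The Klf2 stretch held 2 GC boxes, 214 and 195 bases before the start, and 1 MEF2 site, 118 bases before it. The Klf6 stretch held 1 GC box and 1 E-box, 63 and 43 bases before its start. The Klf4 stretch held 4 GC boxes, of which those at 217 and 212 bases before the start overlap by 1 base, and 1 E-box at 182 bases. GC content was 71.4% for Klf2, 63.2% for Klf6 and 74.5% for Klf4. Among the 32851 RefSeq promoters of the same length, 28.5% held a GC box, 5.01% an E-box and 2.60% a MEF2 site. The cAMP response element, the AP-1 site, the TATA box, the CACCC box and the CArG box were not found in these 3 windows, and 1.14%, 4.01%, 9.95%, 47.8% and 1.30% of all promoters held them. The windows end 31 bases before the start, so a TATA box or another motif nearer to it would not be found. A match describes letters and says nothing of binding. Entries were found for 6 of the 7 members, and Klf10 had none. GC boxes were not particular to the called members, since the windows of Klf3, Klf7 and Klf13 held 6, 1 and 1.

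Klf2 was the member that differed most between preparations, with every ENZ-NONE library above every other library. It is a gene of 2624 bases on chromosome 8 (72319033 to 72321656, plus strand, GRCm38). Klf2 was counted at 91.2, 50.01 and 54.9 CPM in DNC-NONE replicates 1 to 3, at 56.6, 69.9 and 83.8 in DNC-INHIB replicates 4 to 6, at 217, 313 and 1096 in ENZ-NONE replicates 4 to 6, and at 35.0, 42.6 and 35.1 in ENZ-INHIB replicates 1 to 3. The ENZ-NONE range overlapped no other group. ENZ-INHIB lay below both Dounce groups without overlap, but neither of these differences was called in the fits below. The share of all genes whose libraries separate in this way was not counted. These levels rest on 53 to 271 Klf2 UMIs in each Dounce library, 472, 481 and 2991 in the ENZ-NONE libraries and 65 to 113 in the ENZ-INHIB libraries. The mean was 542 ± 482 (SD, n = 3) in ENZ-NONE and 57.7 ± 20.2 CPM (SD, n = 9) over the other libraries.

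Klf6 showed the same order of groups at a smaller size. Its gene spans 8913 bases of chromosome 13 (5861482 to 5870394, plus strand). Klf6 was counted at 191, 113 and 147 CPM in DNC-NONE, at 151, 151 and 157 in DNC-INHIB, at 223, 239.7 and 528 in ENZ-NONE and at 144, 139.8 and 127 in ENZ-INHIB, in the order of their replicates. The ENZ-NONE libraries lay above all others, and the other 3 preparations lay close together at means of 150.2 ± 39.0, 153 ± 3.32 and 137 ± 8.75 (SD, n = 3 each). How many of all genes separate ENZ-NONE in this way was not counted.

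Klf4 was the scarcest member, with 368 UMIs over all kept cells. It lies on chromosome 4 (55527143 to 55532466, minus strand). It was found at 16.4, 10.4 and 7.77 CPM in DNC-NONE, at 8.57, 10.6 and 6.19 in DNC-INHIB, at 11.9, 13.7 and 53.1 in ENZ-NONE and at 7.54, 7.54 and 3.90 in ENZ-INHIB. Of the 192 Klf4 UMIs of ENZ-NONE, 145 came from replicate 6, and the ranges of ENZ-NONE and DNC-NONE overlapped.

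Klf10 is known as a TGF-beta-inducible early gene and Klf13 as a factor that drives Ccl5 in late-activated T cells. Klf2, Klf4, Klf6, Klf10 and Klf13 all had their highest level among the 9 libraries prepared in the cold or with inhibitors in DNC-NONE replicate 1. Klf10 (chromosome 15, 38291463 to 38300706, minus strand) was found at 49.6, 14.2 and 18.3 CPM in DNC-NONE, at 24.3, 21.7 and 18.2 in DNC-INHIB, at 18.4, 27.4 and 60.8 in ENZ-NONE and at 16.7, 15.5 and 10.52 in ENZ-INHIB. Klf13 (chromosome 7, 63886351 to 63938915, minus strand) was found at 359.8, 168 and 184 CPM in DNC-NONE, at 214, 227 and 214 in DNC-INHIB, at 135, 150.4 and 178 in ENZ-NONE and at 155, 125 and 122 in ENZ-INHIB. Both digested groups of Klf13 lay below DNC-INHIB without overlap, but neither difference was called in the fits below. The share of all genes that separate in this way was not counted. Other gene models overlap Klf13, Klf3 and Klf7. Those of Klf13 all lie on the opposite strand, while Klf3 and Klf7 each also overlap a model on their own strand. Whether UMIs of these members include reads of a neighbour was not tested.

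Klf3, a repressor that works through the CtBP corepressors, and Klf7, best known from axon growth in neurons, stayed in narrow ranges. Klf3 (chromosome 5, 64803388 to 64832901, plus strand) lay between 187 and 251 CPM over all 12 libraries and Klf7 (chromosome 1, 64029447 to 64122282, minus strand) between 47.7 and 69.2.

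**Figure D1:**
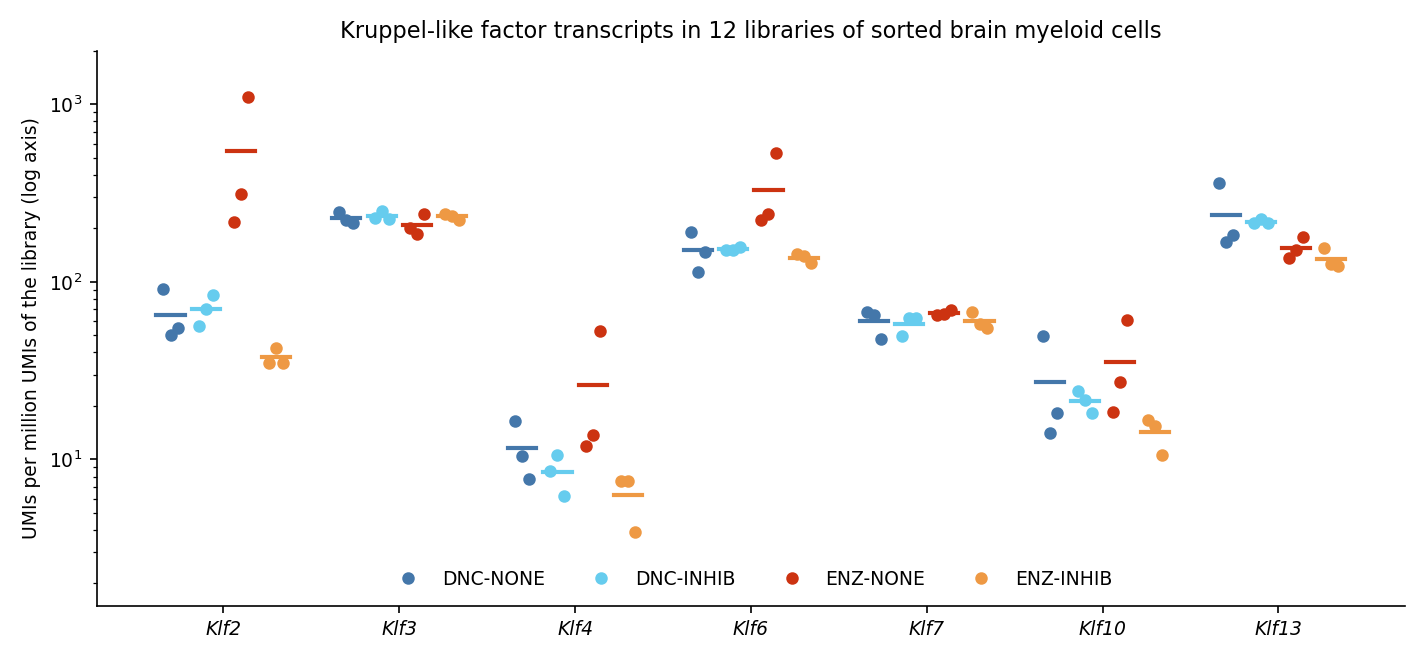
CPM of each member (log axis), 1 point per library and bars at the mean of the 3 libraries of a preparation. Klf2 reached 217 to 1096 in ENZ-NONE against 35.0 to 91.2 in the other libraries, while Klf3 stayed between 187 and 251 everywhere.

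To ask whether digestion without inhibitors changed the members beyond the spread between animals, UMIs were summed per library and fitted across all genes with edgeR's quasi-likelihood test. A gene was called at a Benjamini-Hochberg adjusted p under 0.05 and an absolute log2 fold change over 0.58, and all 7 members passed the low-count filter. Against DNC-NONE, 2 of the 7 members were called in ENZ-NONE, both higher, where 0.617% of the 9882 genes tested were called. Klf2 was higher by 3.08 ± 0.45 on the log2 scale (SE, 8.43-fold, edgeR adjusted p = 0.00119). Klf6 was higher by 1.18 ± 0.25 (2.26-fold, edgeR adjusted p = 0.034). The members' median log2 fold change was 0.34, beside 0.00 over all genes tested.

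Against DNC-INHIB, the same 2 members were called, where 0.799% of genes were called. Klf2 was higher by 3.01 ± 0.43 (8.05-fold, edgeR adjusted p = 0.00066) and Klf6 by 1.17 ± 0.25 (2.26-fold, edgeR adjusted p = 0.0247). Against ENZ-INHIB, which was digested in the same way but with inhibitors, Klf2 and Klf6 were again called, where 0.385% of genes were called. This was the largest of the 3 differences for Klf2, at 3.91 ± 0.47 (15.01-fold, edgeR adjusted p = 9e-05), and Klf6 differed by 1.33 ± 0.25 (2.51-fold, edgeR adjusted p = 0.0166). These 3 comparisons share the ENZ-NONE libraries and are not independent of each other.

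Klf4 missed the threshold in each of them, at 1.27 ± 0.47 compared with DNC-NONE, 1.80 ± 0.47 with DNC-INHIB and 2.21 ± 0.50 with ENZ-INHIB (edgeR adjusted p = 0.417, 0.0915 and 0.0744). Klf10 was not called either, at 0.34 ± 0.39, 0.86 ± 0.39 and 1.44 ± 0.43. With single libraries left out, these values ranged from -0.43 to 1.20, from 0.10 to 1.20 and from 0.68 to 1.78. The highest value against DNC-NONE, 1.20 ± 0.43, came without DNC-NONE replicate 1 (edgeR adjusted p = 0.359). Among the ENZ-NONE libraries, Klf10 stood at 18.4 and 27.4 CPM in replicates 4 and 5 and at 60.8 in replicate 6. Klf13 was lower than in the Dounce groups by values that were not called, -0.59 ± 0.21 and -0.45 ± 0.20 (edgeR adjusted p = 0.363 and 0.491), of which the first was -0.14 ± 0.13 without DNC-NONE replicate 1, and stood at 0.26 ± 0.21 against ENZ-INHIB. Klf3 and Klf7 differed by -0.12 to -0.08 and by 0.20 to 0.23, with standard errors of 0.11 to 0.14, and none of these was called.

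The size of these differences depended on ENZ-NONE replicate 6. Without it, Klf2 was higher by 1.97 ± 0.20, 1.91 ± 0.19 and 2.81 ± 0.20 compared with DNC-NONE, with DNC-INHIB and with ENZ-INHIB (edgeR adjusted p = 2.57e-06, 1.81e-06 and 1.32e-08), and Klf6 by 0.61 ± 0.14, 0.61 ± 0.14 and 0.77 ± 0.14 (edgeR adjusted p = 0.0352, 0.0371 and 0.00636), so both were still called. Klf4 fell to 0.10 ± 0.34, 0.62 ± 0.34 and 1.03 ± 0.37 without that library and was not called. Within batch 1, Klf2 stood at 217 and 313 CPM in ENZ-NONE against 35.0 to 91.2 in the other 4 libraries, and Klf6 at 223 and 239.7 against 113 to 191. Within batch 2, the single ENZ-NONE library stood at 1096 and 528 against at most 83.8 and 157. In microglia-like cells alone, Klf2 was higher by 3.42 ± 0.45, 3.18 ± 0.42 and 4.18 ± 0.46, no smaller than over all cells.

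Klf2 was called without any single library in all 3 comparisons, and Klf6 was not. Against DNC-NONE, Klf6 was lost by the threshold without any 1 of DNC-NONE replicates 2 and 3, DNC-INHIB replicates 4, 5 and 6, and ENZ-INHIB replicates 2 and 3 (log2 1.03 to 1.18, edgeR adjusted p = 0.0541 to 0.189). Against DNC-INHIB it was lost without any 1 of the DNC-INHIB libraries (edgeR adjusted p = 0.106 to 0.123), and against ENZ-INHIB without any 1 of the ENZ-INHIB libraries (edgeR adjusted p = 0.0766 to 0.131). DESeq2 gave Klf6 an adjusted p of 0.0867, 0.0795 and 0.0272 in the 3 comparisons. Klf4 was called without ENZ-NONE replicate 4 (2.17 against DNC-INHIB, 2.58 against ENZ-INHIB) and without ENZ-NONE replicate 5 (2.06 and 2.47).

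The other 3 comparisons ask whether inhibitors change Dounce cells and whether digestion with inhibitors differs from Dounce. No member was called in any of them. Counts of members with an unadjusted p under 0.05 are given without the share of all genes, and describe the members only. For DNC-NONE against DNC-INHIB, edgeR called 0 of 7 members, 0 had an unadjusted p under 0.05 and DESeq2 called 0, where 0.0% of all genes were called. Klf2 differed there by -0.07 ± 0.47 and Klf6 by -0.00 ± 0.26, while Klf4 and Klf10 stood at 0.53 ± 0.56 and 0.52 ± 0.41. For ENZ-INHIB against DNC-INHIB, edgeR called 0 members, 1 had an unadjusted p under 0.05 and DESeq2 called 0, where 0.152% of genes were called. For ENZ-INHIB against DNC-NONE, edgeR called 0 members, 2 had an unadjusted p under 0.05 and DESeq2 called 0, where 0.101% of genes were called. Klf13 carried the smallest p in both of these, at -0.70 ± 0.20 and -0.85 ± 0.21 (edgeR adjusted p = 0.267 and 0.127). Without DNC-NONE replicate 1 the first became -0.70 ± 0.12 and was called (edgeR adjusted p = 0.0156), while the second became -0.40 ± 0.13 (edgeR adjusted p = 0.381). Without ENZ-NONE replicate 6 the second was called at -0.85 ± 0.19 (edgeR adjusted p = 0.0369). Klf2 stood at -0.90 ± 0.48 and -0.83 ± 0.50 in these 2 comparisons, which did not pass (edgeR adjusted p = 0.647 and 0.599).

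**Figure D2:**
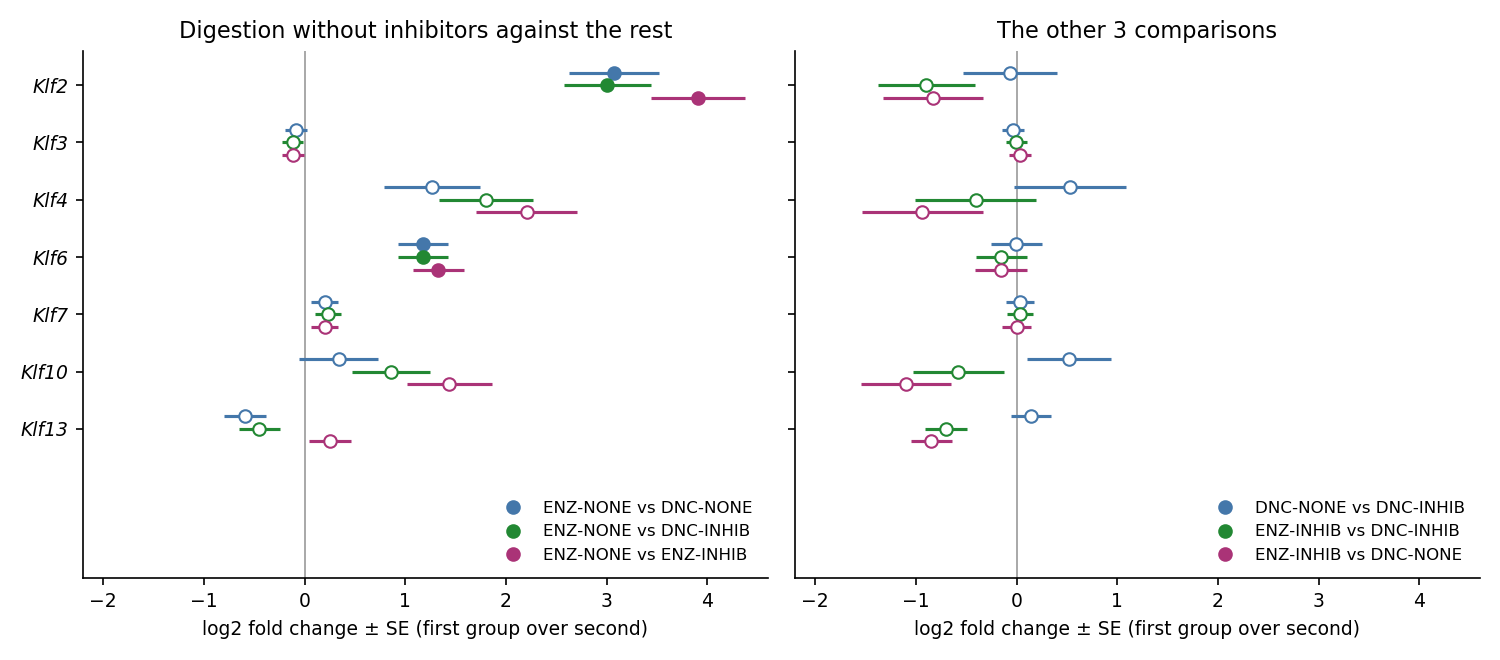
Log2 fold change ± SE from the edgeR fit over 12 libraries for each member, first group over second, with filled points where the member was called. Klf2 (3.01 to 3.91) and Klf6 (1.17 to 1.33) carry filled points in the 3 comparisons of ENZ-NONE on the left, and all points of the other 3 comparisons on the right are open.

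Whether leaving out inhibitors mattered more under digestion than under Dounce was tested as an interaction. It was called for 1 of the 7 members, Klf2, where 0.172% of the 9882 genes were called. The effect of leaving out inhibitors on Klf2 was larger by 3.97 ± 0.65 on the log2 scale under digestion (edgeR adjusted p = 0.0112). Klf6 stood at 1.33 ± 0.36 and Klf4 at 1.67 ± 0.77, and neither was called (edgeR adjusted p = 0.56 and 1). Without ENZ-NONE replicate 6, the Klf2 value was 2.87 ± 0.28 and still called (edgeR adjusted p = 8.61e-06). The call was lost at nearly the same size without DNC-NONE replicate 2 (3.85, edgeR adjusted p = 0.0566), DNC-NONE replicate 3 (3.85, 0.0525) or ENZ-INHIB replicate 3 (3.93, 0.0508).

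The share of cells with a UMI of a member followed the summed levels. Every cell was thinned to 1000 UMIs so that cells of different depth could be compared. Klf2 was found in 8.85%, 11.3% and 31.4% of cells in ENZ-NONE replicates 4 to 6, and in 1.99% to 6.74% of cells in the other 9 libraries. The difference of the means was 12.7 percentage points (17.2 ± 12.4 against 4.49 ± 1.49, SD), and the exact permutation test (two-sided) gave p = 0.00909, the smallest value that 220 assignments of the libraries allow. Klf6 was found in 16.9%, 17.7% and 33.1% of ENZ-NONE cells and in 10.3% to 16.4% of cells elsewhere, a difference of 9.42 points (22.6 ± 9.12 against 13.1 ± 1.73, SD, exact permutation p = 0.00909). Permuting only within batches gave 0.0222 for both, the smallest that 90 assignments allow. None of the permutation p-values, here or below, was adjusted over the 7 members tested. Within batch 1 the difference was 5.86 points for Klf2 and 4.30 for Klf6, and within batch 2 it was 26.6 and 19.8.

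The other 5 members did not separate ENZ-NONE from the rest by this test. Klf4 was found in 0.892%, 1.34% and 4.12% of ENZ-NONE cells and in 0.315% to 1.63% elsewhere (exact permutation p = 0.0818). Klf10 was found in 1.78% to 5.15% of ENZ-NONE cells and in 1.20% to 4.84% elsewhere (exact permutation p = 0.136). Klf13 was found in 11.3% to 15.5% against 10.8% to 28.1% (exact permutation p = 0.282), the 28.1% being DNC-NONE replicate 1. Klf3 was found in 17.2% to 22.2% of the cells of every library (exact permutation p = 0.0909), and Klf7 in 5.12% to 6.53% (exact permutation p = 0.236). Leaving out ENZ-NONE replicate 6 lowered the differences of Klf2 and Klf6 to 5.57 and 4.16 points (exact permutation p = 0.0364 for both, the smallest that design allows). Without it Klf3 differed by -2.78 points (exact permutation p = 0.0364), and without DNC-NONE replicate 1 Klf4 differed by 1.49 (exact permutation p = 0.0242) and Klf10 by 1.51 points (exact permutation p = 0.0485). The sort held no cell type that is known to lack these factors, so the share that free RNA gives was not tested.

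In the ENZ-NONE libraries, the cells were then split by Fos, with a thinned cell called Fos-positive at 1 or more Fos UMIs. There were 186 Fos-positive and 1356 Fos-negative microglia-like cells in replicate 4, 155 and 944 in replicate 5, and 650 and 1036 in replicate 6. Klf2 was found in 26.3%, 34.8% and 52.8% of Fos-positive cells and in 6.19%, 6.99% and 17.8% of Fos-negative cells of the same libraries. In each animal the exact 95% binomial intervals of the 2 classes were apart, at 20.2% to 33.3% against 4.97% to 7.61% in replicate 4. Fos-positive cells held 54.0%, 62.9% and 79.8% of the Klf2 UMIs of these libraries while making up 12.1%, 14.1% and 38.6% of their cells. Cells with Klf2 also carried more of it, 3.59, 3.65 and 4.19 UMIs per Klf2-positive cell in the Fos-positive class against 1.79, 1.76 and 1.98 in the Fos-negative class.

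Klf6 was found in 29.6%, 33.5% and 45.8% of Fos-positive cells against 14.97%, 15.04% and 25.3% of Fos-negative cells. Klf4 was found in 1.075%, 3.87% and 6.46% against 0.664%, 0.742% and 2.61%, and in replicate 4 this rests on 2 positive cells of 186. With the animal as a block, 3 of the 7 members were called between the classes, all higher in Fos-positive cells, where 0.694% of the 7353 genes tested were called. Klf2 was higher by 2.94 ± 0.09 (7.70-fold, edgeR adjusted p = 3.5e-39), Klf6 by 1.56 ± 0.09 (2.94-fold, edgeR adjusted p = 1.39e-22) and Klf4 by 1.55 ± 0.32 (2.93-fold, edgeR adjusted p = 0.00108). These errors and p-values come from only 3 animals and should not be read as the spread between them. In replicates 4 to 6, the CPM ratio of the classes was 8.55, 10.3 and 6.30 for Klf2. It was 2.75, 3.42 and 2.73 for Klf6, and 1.62, 6.96 and 2.55 for Klf4. Klf2 and Klf6 were also called without ENZ-NONE replicate 6, at 3.27 ± 0.13 and 1.65 ± 0.14 (edgeR adjusted p = 8.64e-14 and 1.46e-07). Klf4 did not pass the low-count filter without that library, and DESeq2 gave it an adjusted p of 0.313.

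The other 4 members did not separate the classes. Klf7 stood at 0.36 ± 0.22, Klf10 at 0.11 ± 0.29, Klf13 at 0.02 ± 0.15 and Klf3 at -0.09 ± 0.12 (edgeR adjusted p = 0.827, 0.982, 0.996 and 0.964). Their shares in Fos-positive and Fos-negative cells were within 3.29 points of each other in every animal. In the 9 libraries of the other preparations, Fos-positive cells numbered 47 in DNC-NONE replicate 1 and at most 3 in any other library. In DNC-NONE replicate 1, Klf2 was found in 7 of these 47 cells (14.9%) against 5.59% of its 1718 Fos-negative cells.

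**Figure D3:**
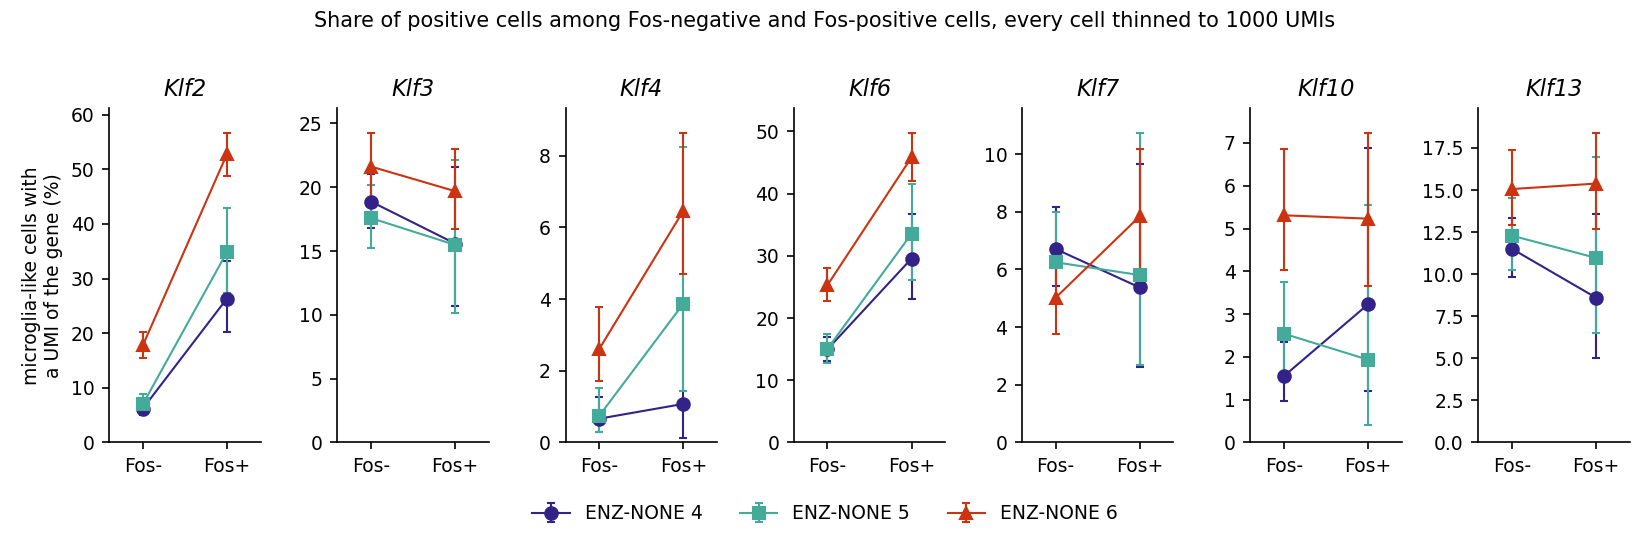
Share of microglia-like cells with a UMI of each member in Fos-negative and Fos-positive cells of the 3 ENZ-NONE libraries, every cell thinned to 1000 UMIs, 1 line per animal. Klf2 goes from 6.19%, 6.99% and 17.8% to 26.3%, 34.8% and 52.8%, while Klf3 stays between 15.5% and 21.6%.

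Klf2 and Klf6 were also graded by the number of Fos UMIs in the cell. In replicate 6, Klf2 was found in 17.8% of cells with no Fos UMI, 31.4% with 1, 49.5% with 2 and 64.6% with 3 or more. In replicate 5 the shares were 6.99%, 26.0%, 38.9% and 45.7%, and in replicate 4 they were 6.19%, 21.2%, 20.5% and 34.2%. All 3 animals had their lowest share without Fos and their highest at 3 or more Fos UMIs. For Klf6 the shares went from 25.3% to 53.3% in replicate 6, from 15.04% to 41.3% in replicate 5 (41.7% at 2 Fos UMIs) and from 14.97% to 34.2% in replicate 4. Klf6 was found in 34.6%, 38.3% and 47.4% of Klf2-positive microglia-like cells of these libraries and in 15.05%, 15.1% and 26.7% of Klf2-negative ones. Klf3 showed no such step, at 16.5%, 11.7% and 20.7% of Klf2-positive cells against 18.7%, 17.98% and 21.0% of Klf2-negative cells.

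**Figure D4:**
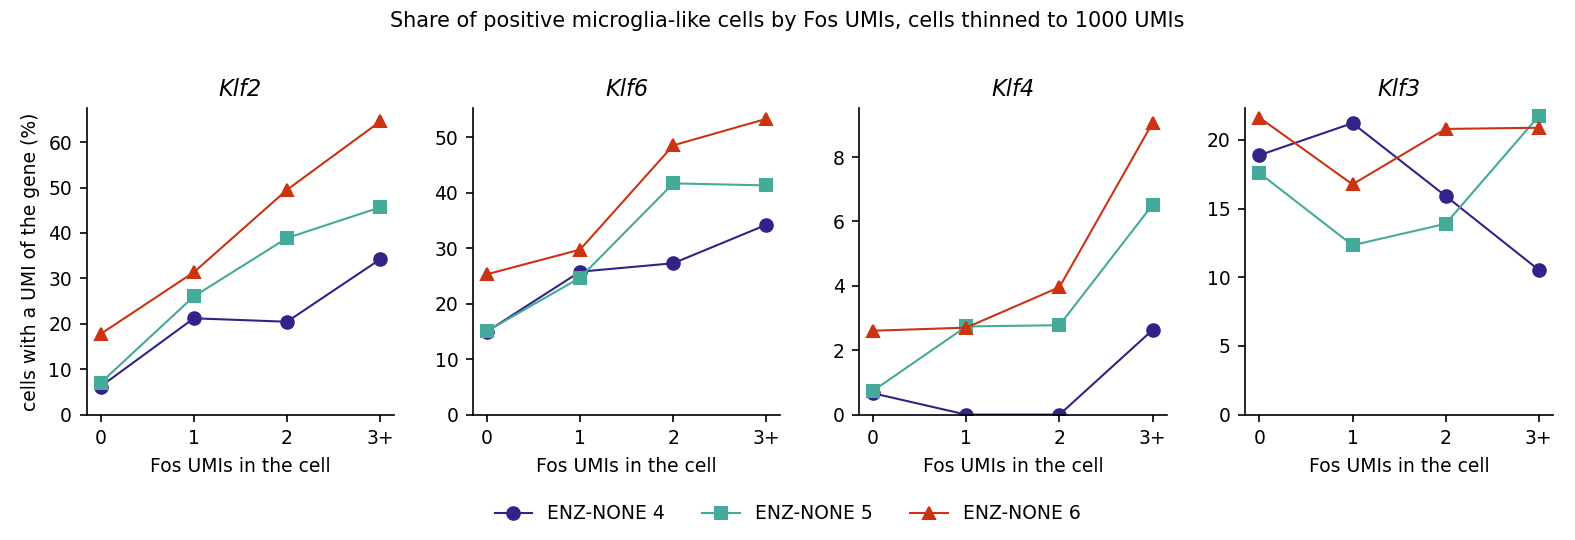
Share of microglia-like cells with a UMI of Klf2, Klf6, Klf4 and Klf3 by the number of Fos UMIs in the thinned cell, 1 line for each ENZ-NONE library. In replicate 6 the Klf2 share goes from 17.8% without Fos to 64.6% at 3 or more Fos UMIs, and the bins at 1 and 2 Fos UMIs of replicates 4 and 5 hold 36 to 73 cells.

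Microglia-like cells without a Fos UMI after thinning were compared across all 12 libraries to see whether members differed between preparations outside the Fos-positive class. Some of these cells held Fos UMIs that thinning removed. Before thinning, 216, 176 and 693 microglia-like cells of ENZ-NONE replicates 4 to 6 held a Fos UMI, against 186, 155 and 650 after it. In DNC-NONE replicate 1 there were 63 before and 47 after. Klf2 was found in 6.19%, 6.99% and 17.8% of the Fos-negative cells of ENZ-NONE, in 3.01% to 5.59% of those of DNC-NONE, in 4.56% to 5.59% of DNC-INHIB and in 1.28% to 3.72% of ENZ-INHIB. The ENZ-NONE libraries were again above all others, with replicates 4 and 5 close to the highest Dounce libraries. How many of all genes separate in this way was not counted. Against DNC-NONE, 1 of the 7 members was called, Klf2, where 0.364% of the 9054 genes tested were called (1.86 ± 0.33, edgeR adjusted p = 0.00305). Against DNC-INHIB it was again Klf2 alone, where 0.508% were called (1.66 ± 0.30, edgeR adjusted p = 0.00345), and against ENZ-INHIB, where 0.276% were called, Klf2 alone (2.61 ± 0.34, edgeR adjusted p = 3.9e-05). Without ENZ-NONE replicate 6 these were 1.11 ± 0.22, 0.91 ± 0.21 and 1.85 ± 0.23, still called (edgeR adjusted p = 0.012, 0.0381 and 8.87e-06).

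DESeq2 did not call Klf2 in Fos-negative cells against DNC-NONE or DNC-INHIB (adjusted p = 0.0869 and 0.218). Cells with any UMI of Fos, Dusp1, Egr1 or Hspa1a after thinning were then left out. The Klf2 difference became 1.11 ± 0.34 against DNC-NONE and 0.90 ± 0.31 against DNC-INHIB, not called (edgeR adjusted p = 0.477 and 0.426). Against ENZ-INHIB it was 1.85 and called (edgeR adjusted p = 0.013). Klf6 in Fos-negative cells stood at 0.59 ± 0.19, 0.60 ± 0.19 and 0.79 ± 0.19 against the 3 groups and was not called (edgeR adjusted p = 0.42, 0.241 and 0.117), and without ENZ-NONE replicate 6 at 0.21 ± 0.16, 0.23 ± 0.15 and 0.42 ± 0.16. Against ENZ-INHIB, Klf6 was called without DNC-NONE replicate 1 (0.79, edgeR adjusted p = 0.0265), ENZ-NONE replicate 4 (0.97, 0.0223) or ENZ-NONE replicate 5 (0.93, 0.0349).

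Klf2, Klf6 and Klf13 were also present in the few sorted cells that were not microglia-like. These classes were named from marker genes and hold 43 to 65 border macrophage-like and 21 to 47 monocyte-like cells per preparation, too few per library for a test, so 3 libraries were summed and the intervals are exact Poisson intervals at 95%. In microglia-like cells, Klf2 stood at 54.5, 63.1, 600.3 and 31.2 CPM of the class in DNC-NONE, in DNC-INHIB, in ENZ-NONE and in ENZ-INHIB. In monocyte-like cells it stood at 741 (576 to 939.6) in DNC-NONE, 741 (504 to 1052) in DNC-INHIB, 1237 (963 to 1566) in ENZ-NONE and 825 (549 to 1193) in ENZ-INHIB. Monocytes are known to express Klf2 at rest, and the intervals of the 4 preparations overlapped here, other than those of ENZ-NONE and DNC-NONE.

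In border macrophage-like cells, the macrophages of the meninges and vessels, Klf2 stood at 232, 84.5, 935 and 187 CPM in the same order. Of the 67 UMIs of ENZ-NONE 62 came from replicate 6, where 9 of 27 cells were positive. Klf6 in these cells stood at 144, 193, 614 and 187 CPM, and at 418, 551 and 701 in ENZ-NONE replicates 4 to 6 from 8, 3 and 33 UMIs. Klf13 stood at 1155 CPM (946 to 1397) in monocyte-like cells of DNC-NONE against 249 (235 to 263) in its microglia-like cells. Its microglia-like levels were 215 in DNC-INHIB, 152 in ENZ-NONE and 129.5 in ENZ-INHIB. In monocyte-like cells of DNC-NONE, replicate 1 held 34 of the 47 cells, and Klf13 stood at 1164, 807 and 1310 CPM in replicates 1 to 3. These rest on 83, 6 and 17 UMIs. In the monocyte-like cells of DNC-INHIB, ENZ-NONE and ENZ-INHIB it stood at 598, 789 and 737 CPM. The microglia-like level of DNC-NONE rested on replicate 1. In microglia-like cells Klf13 stood at 339, 162 and 175 CPM in DNC-NONE replicates 1 to 3, against 210.1, 223 and 211 in DNC-INHIB replicates 4 to 6, so replicate 1 lay above and the other replicates below every DNC-INHIB library. Klf4 was found at 131, 191, 143 and 59.0 CPM in monocyte-like cells from 12, 8, 8 and 2 UMIs, and at 8.12, 5.70, 27.3 and 5.06 in microglia-like cells.

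**Figure D5:**
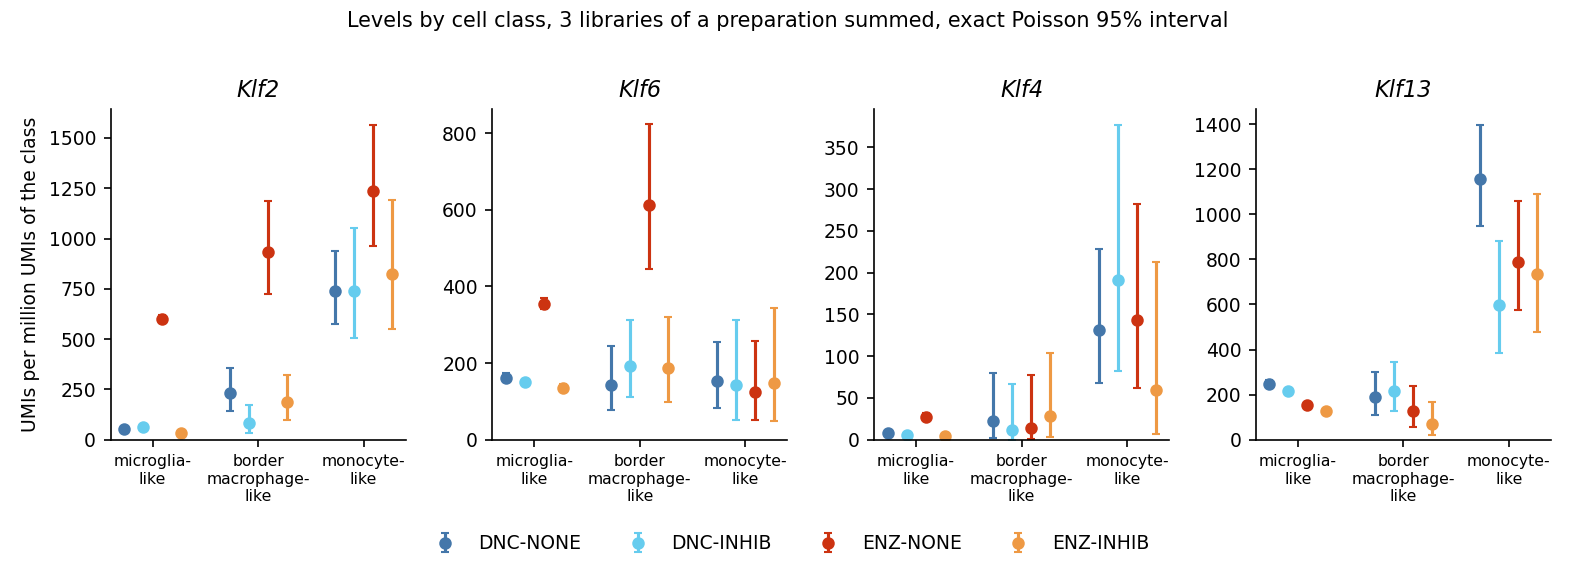
CPM of the class for Klf2, Klf6, Klf4 and Klf13 in microglia-like, border macrophage-like and monocyte-like cells, 3 libraries of a preparation summed, with exact Poisson 95% intervals that cover counting error only. In microglia-like cells Klf2 stands at 600.3 in ENZ-NONE and at 31.2 to 63.1 in the other preparations, while monocyte-like cells hold 741 or more in each.

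Genes related to these members by family or pathway were also looked up. None of the 5 lists of related genes had a gene called in any of the 6 comparisons by edgeR or by DESeq2. Of all genes tested, edgeR called 0.0% to 0.799% in these comparisons, so few or no calls would be found in any lists of this size. The absence of calls therefore says little about these genes. Counts of list genes with an unadjusted p under 0.05 are given without the share of all genes and describe the lists only. Of 10 other Klf genes, 3 passed the filter, Klf16, Klf12 and Klf11, at means of 8.99, 4.97 and 4.18 CPM, Klf9 at 1.63 did not pass, and Klf14 and Klf17 had no UMI. Of 9 Sp genes, the close relatives of the KLF family, 4 passed, led by Sp3 at 70.8 CPM with a difference of 0.04 ± 0.13 between ENZ-NONE and DNC-NONE. None of these relatives was called, and at most 1 gene of either list had an unadjusted p under 0.05 in any comparison.

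The kinase cascade of MEKK3, MEK5 and ERK5 acts through MEF2 factors on the Klf2 and Klf4 promoters in endothelial cells, and Krit1 and Pdcd10 belong to the complex that restrains it. Of its 14 genes, 12 passed the filter. Mef2c and Mef2a, at means of 894 and 407 CPM, stood at 0.18 ± 0.08 and 0.25 ± 0.08 between ENZ-NONE and DNC-NONE and were not called (edgeR adjusted p = 0.529 and 0.303). Pdcd10 and Krit1, at 159 and 139.6 CPM, stood at 0.04 ± 0.09 and -0.12 ± 0.10. In that comparison 3 of the 12 had an unadjusted p under 0.05, against 1 compared with DNC-INHIB and 0 with ENZ-INHIB.

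Of 13 cofactors, all passed the filter, and Ctbp1, Hdac1, Ctbp2 and Sin3b, the corepressors with the highest levels, stood between -0.14 and 0.20 against DNC-NONE, and 1 of the 13 had an unadjusted p under 0.05. Of 13 genes known as targets of members, 10 passed. Tgfbr1 and Tgfb1, at 819.9 and 390.1 CPM, stood at 0.11 ± 0.09 and -0.13 ± 0.11 against DNC-NONE. Smad7, an inhibitor of TGF-beta signalling, stood at 0.65 ± 0.16 against ENZ-INHIB and was not called (edgeR adjusted p = 0.125), where 2 of the 10 had an unadjusted p under 0.05. Against DNC-NONE and DNC-INHIB it stood at only 0.06 ± 0.16 and 0.18 ± 0.15. ENZ-INHIB was the low group for Smad7, at -0.59 ± 0.16 and -0.47 ± 0.16 against DNC-NONE and DNC-INHIB, not called. For ENZ-INHIB against DNC-NONE, 5 of the 10 targets had an unadjusted p under 0.05, but 0 were called and the list median was 0.01. The share of all genes with an unadjusted p under 0.05 is not given, so this count describes the list only. The medians of the cascade, cofactor and target lists between ENZ-NONE and DNC-NONE were 0.02, -0.02 and 0.09, beside 0.00 over all genes tested.

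The genes whose log2 levels were most like those of Klf2 over the 12 libraries were Zfp36, which encodes an mRNA decay factor, Btg2, an early-response antiproliferative gene, and Ccl4, a chemokine, at Pearson r of 0.965, 0.964 and 0.962. Zfp36 stood at a mean of 381 CPM in ENZ-NONE and 44.1 elsewhere, and Ccl4 at 535 and 47.8. For Klf6 they were Ier5, Txnip and Btg2 (r of 0.971, 0.951 and 0.9502), and for Klf4 Mcl1, Id2 and Socs3 (r of 0.927, 0.925 and 0.920). Over the 11 libraries left without ENZ-NONE replicate 6, r was 0.917 to 0.937 for the 3 genes of Klf2, 0.870 to 0.928 for those of Klf6 and 0.742 to 0.808 for those of Klf4. All points share the split between ENZ-NONE and the other preparations, so these values describe likeness of pattern over libraries and no more.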

How the data were processed

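The authors deposited UMI counts per gene and cell barcode, 1 matrix per animal, made with Cell Ranger 3.0.0 against the mm10 (GRCm38) reference; the labels' processing notes also name bcl2fastq and Seurat. From these counts, cells with at least 500 genes, 1000 UMIs and at most 10% mitochondrial UMIs were kept (limits set for this work), and 5 cells with 5 or more UMIs from 3 or more markers of non-myeloid classes were removed as doublets. This rule does not find doublets of 2 microglia; an alternative also left out the cells with the 2% highest Scrublet scores per library. Clusters (Scanpy 1.11.5, Leiden resolution 1) were named from fixed markers. Counts were summed per library and fitted with edgeR 4.0.16 (TMM, quasi-likelihood) in R 4.3.3, all 12 libraries in 1 fit, with DESeq2 1.42.0 as an alternative, and were tested on simulated data. Shares used cells thinned to 1000 UMIs and exact permutation over libraries. Libraries are separate animals. The members and gene lists were chosen with earlier results of these data known. Named were all members, list genes called or else up to 4 with the highest level, and the 3 genes most like each called member. Gene positions came from GENCODE, promoters from RefSeq (GRCm38.p6). Levels are CPM over the kept cells, that is UMIs of a gene scaled to a library total of 1000000, not divided by gene length.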

Additional observations from a re-analysis of the deposited data

Results flagged for a closer look

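The effect of leaving out inhibitors on Klf2 differed between the 2 ways of dissociation. It was 3.91 on the log2 scale under digestion and -0.07 under Dounce, and the interaction term of the edgeR fit gave the difference as 3.97 ± 0.65 (edgeR adjusted p = 0.0112). Klf2 was higher without inhibitors in 3 of 3 digested libraries, all of which lay above the 3 libraries digested with inhibitors, while the DNC-NONE and DNC-INHIB libraries overlapped. How many of all genes separate in this way was not counted. The part of the higher Fos share of ENZ-NONE replicate 6 in the interaction value was not tested, and without that library the difference was 2.87 ± 0.28.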

How the results depend on the processing

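Of the log2 fold changes of members under the alternatives, 556 kept their side of the threshold, 24 no longer passed and 21 newly passed. No called value changed sign, but some values that were never called did. Klf10 against DNC-NONE, for example, ranged from -0.43 to 1.20 when single libraries were left out. The cause was not tested for the changes below. The counts of members called by edgeR in ENZ-NONE were 2, 2 and 2 compared with DNC-NONE, with DNC-INHIB and with ENZ-INHIB, and became 4, 4 and 4 with no filter on low counts, 1, 1 and 2 by DESeq2, and 1 against DNC-NONE under the looser cell filter. With no filter the counts were 2 for ENZ-INHIB against DNC-INHIB, 3 for ENZ-INHIB against DNC-NONE, 3 for the interaction, and 3, 3 and 4 in Fos-negative cells. The share of all genes called is not given for these settings, so the counts describe the settings and not the members. Without the filter the error of Klf13 in ENZ-INHIB against DNC-INHIB fell from 0.20 to 0.11 at the same log2 value of -0.70. In Fos-negative cells DESeq2 called 0 members against DNC-NONE and 0 against DNC-INHIB, the removal of cells with Fos, Dusp1, Egr1 or Hspa1a left 0 and 0, and batch as a covariate gave 2 against DNC-INHIB and 2 against ENZ-INHIB. Batch as a covariate brought Klf4 past the threshold over all cells against DNC-INHIB (1.96) and ENZ-INHIB (2.37).

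Leaving out 1 library at a time gave 1 to 2 members called against DNC-NONE, 1 to 3 against DNC-INHIB, 1 to 3 against ENZ-INHIB, 0 to 0 for DNC-NONE against DNC-INHIB, 0 to 1 for ENZ-INHIB against either Dounce group and for the interaction, 2 to 3 for the Fos classes, and 1 to 1, 1 to 1 and 1 to 3 in Fos-negative cells. The share differences ranged from 5.57 to 16.8 points for Klf2, -2.78 to -0.93 for Klf3, 0.377 to 1.99 for Klf4, 4.16 to 12.3 for Klf6, 0.297 to 0.532 for Klf7, 0.156 to 1.84 for Klf10 and -4.60 to -1.94 for Klf13. Thinned to 2000 UMIs, which leaves few cells, Klf2 differed by 13.95 points (exact permutation p = 0.0909) and Klf6 by 6.10 (exact permutation p = 0.155), and without thinning Klf4 by 1.93 (exact permutation p = 0.0455).

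Replicate numbers are shared by ENZ-NONE and DNC-INHIB and by ENZ-INHIB and DNC-NONE, but same-numbered libraries did not all deviate together (r of -0.08 to 0.15), so the numbers were not taken as pairs. With the replicate block, ENZ-NONE against DNC-INHIB gave 3 members (Klf4 added at 1.70) and ENZ-INHIB against DNC-NONE 1 member, Klf13 at -0.75, and the calls over all genes went from 79 to 102 and from 10 to 61. Klf4 and Klf10, at 368 and 686 UMIs in all, are limited by counting.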
